A study of Mus musculus with 24 samples.

Results

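The genes described here are 43 genes of the interferon response of the mouse, chosen by name: the chains of both interferon receptors, the transcription factors and negative regulators of the pathway, sensors of foreign nucleic acid, and antiviral effectors. Their chromatin was followed through peaks of transposase-accessible DNA in CD8 T cells. A peak belonged to a member gene when its summit lay inside the gene, or within 100 kb of it with that gene as the nearest of 21898 gene intervals on build GRCm38 (mm10), in lists of at least 10000 peaks. The members held 105 of 27065 regions in the comparison of tumor groups and 89 of 22997 regions in the comparison of tumor with lymph node. At the edge of the distance rule, the farthest member region lay 97.34 kb from Ifngr1, and no region of a member fell just beyond the limit.

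Type I interferons bind the receptor made of Ifnar1 and Ifnar2, and interferon gamma binds the receptor made of Ifngr1 and Ifngr2. Type I signals lead to a factor with Stat2 and Irf9 that binds the interferon-stimulated response element, while interferon gamma acts mainly through gamma-activated sites. In T cells of tumors and of chronic infections, interferon target genes are among the programs that accompany activation and exhaustion. Open chromatin at such a gene shows that the DNA can be reached, not that the gene is transcribed.

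The assay was bulk ATAC-seq by the Omni-ATAC protocol, in which Tn5 transposase cuts and tags open DNA, on CD8 T cells sorted from hosts of B16-F10 melanoma, a mouse line grown under the skin. All mice carried Lag3-iCreERT2 and Rosa26-LSL-tdTomato on a C57BL/6 background, received 2 mg tamoxifen on days 8 to 10 after implantation and gave tissue on day 19. Red fluorescence therefore marks cells in which the Lag3 gene was active while tamoxifen was present, and cells that turned Lag3 on later stay unlabelled. The purpose stated for the series is to relate accessibility to exhausted and memory-like CD8 differentiation.

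Tumor gave 4 DN libraries (LAG3-, tdTomato-), 4 DP libraries (LAG3+, tdTomato+), 3 libraries named LAG3_SP and 3 named TDT_SP. Per lymph node type, draining (DLN) or non-draining (NDLN), there were 2 DN, 1 LAG3_SP and 2 TDT_SP libraries. The name LAG3_SP sits beside a description as LAG3- and tdTomato+, and TDT_SP libraries are described as tdTomato+ with no LAG3 state, so these names only identify libraries here, and neither is read as a LAG3 state. The labels state neither the ages of the mice nor any pooling of animals. Nothing states that replicates came from separate animals, so the p-values measure the spread between these libraries. Of the 24 libraries, 18 had lists of 14244 to 48268 peaks and were used, among them 3 of each tumor group and 1 of each node group, and 6 had lists of 301 to 6613 peaks and were not. Depth is unknown, since peak lists carry no counts of reads.

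The value compared is a rank value: the quantile of a peak by its -log10 p among the strongest peaks of its library, 1 for the strongest and near 0 for the weakest. A rank value of 0 means that no peak over the region was among those kept, which were the strongest 19000 per library for the tumor groups and 14000 for the tissues and for all descriptions over 18 libraries. A weaker peak can still stand in the whole list at a region with a rank value of 0. In sorted bulk cells, fewer cells with an open region and a less open region in each cell cannot be told apart.

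Markers of T cells were present in the libraries: 5 to 8 of 8 genes had a kept peak in a tumor library and 7 to 8 of 8 in a node library. The B cell genes Ms4a1, Cd79a and Cd79b, the myeloid genes Lyz2, Csf1r and Adgre1, and the pigment genes Tyr, Dct, Sox10 and Tyrp1 had a rank value of 0 in all 18. Blk, another gene of the B cell list, had a peak in 11 of 12 tumor and 0 of 6 node libraries, and the myeloid gene Itgam in 11 and 1. The summed rank value of the 7 B cell genes was 0 to 1.13 in tumor and 0 to 0.182 in nodes, and that of the 7 myeloid genes 0 to 0.468 and 0 to 0.183. Of 4 NK genes 2 to 3 had a peak in either tissue, with Ncr1 at 0. Of 5 genes of plasmacytoid dendritic cells, which include the member Bst2, 2 to 3 had one in tumor and 3 to 4 in nodes, with Siglech at 0. Of 7 pigment cell genes 2 to 3 had one in tumor and 2 in nodes, Mitf and Pmel in all 18. The part of these markers in the results on members was not tested. In 4 tumor libraries, the highest-numbered used one of each group (DN 4, DP 4, LAG3_SP 3, TDT_SP 3), deviations from the group means ran together, with correlations of 0.187 to 0.333 over the regions, against -0.251 to -0.0513 with the other 8 libraries. The lists of these 4 held 19679 to 24050 peaks, those of the other 8 held 25056 to 48268, and the labels name a single batch for all. The calls on members are given below with and without them.

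The letters GAAANNGAA, part of the interferon-stimulated response element, were searched on both strands in promoter windows from 250 bases before to 50 bases after each annotated start (RefSeq, GRCm38.p6), and overlapping matches were counted. Windows were at hand for 34 of the 43 members, and 18 of the 34 (52.9%) held the letters, against 9.43% of 17491 genes. The core of the gamma-activated site, TTCNNNGAA, was found in 13 of the 34 (38.2%), against 8.92% of all. The 7 stretches below were picked by the kept peaks over the window. Stat2, Socs1, Ifit1, Trim30a and Gbp7 had one in all 18 libraries, Isg15 in some tumor libraries only and Oas3 in none. In the whole lists the Isg15 window had a peak in 10 of 12 tumor and 4 of 6 node libraries. The Oas3 window had one in 4 of 12 and 0 of 6. Capitals mark the matched letters or their reverse complement.
Stat2: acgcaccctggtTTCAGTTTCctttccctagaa
Socs1: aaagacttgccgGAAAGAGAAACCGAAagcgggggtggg
Ifit1: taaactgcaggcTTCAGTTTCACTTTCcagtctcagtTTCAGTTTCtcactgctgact
Trim30a: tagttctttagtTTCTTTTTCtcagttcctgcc
Gbp7: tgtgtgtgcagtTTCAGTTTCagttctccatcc
Isg15: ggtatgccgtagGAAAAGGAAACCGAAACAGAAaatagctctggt
Oas3: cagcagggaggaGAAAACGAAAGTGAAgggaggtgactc
Each runs 5′ to 3′ on the strand of its gene and ends before the annotated start. They lie at chr10:128270265-128270297 on the plus strand (Stat2), chr16:10785593-10785631 minus (Socs1), chr19:34640768-34640825 plus (Ifit1), chr7:104465208-104465240 minus (Trim30a), chr3:142530272-142530304 plus (Gbp7), chr4:156200864-156200908 minus (Isg15) and chr5:120777708-120777746 minus (Oas3).

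Members with and without the letters included both open and closed promoters. Of the 18 members with the letters, 8 had a kept peak over the window in all 18 libraries and 4 in none. Of the 16 without them, 4 were open in all and 2 in none. Ifit1 and Ifit3 encode related proteins that bind foreign RNA, and each window held 3 matches, yet the Ifit1 window carried a kept peak in 18 of 18 libraries and the Ifit3 window in 0 of 18, also in the whole lists. The start used for the Ifit3 window lies inside the interval used to assign peaks to Ifit3, not at its edge. A match describes letters and does not show that a factor binds.

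A larger share of the members' promoters than of all promoters carried a peak. In each tumor library 21 to 24 of the 34 windows carried a kept peak, which is 61.8% to 70.6%, against 32.8% to 40.9% of all genes with a window. In each node library it was 19 to 21, or 55.9% to 61.8%, against 30.7% to 38.5%. Over the 18 libraries, 12 of 34 member windows were open in every one (35.3%, against 22.0% of 17273 genes), and 6 in none (17.6%, against 53.6%). Members took 45 to 59 of the 14000 kept peaks of a library, or 0.321% to 0.421%. The median rank value of these peaks was 0.335 to 0.457 in the 12 tumor libraries and 0.442 to 0.578 in the 6 node libraries, beside about 0.5 for all kept peaks. The members' kept peaks in tumor thus had a median below the middle of the kept peaks in 12 of 12 libraries, and the tumor and node ranges overlapped. This did not hold in the whole lists. There the median rank value of member peaks was 0.427 to 0.582 in tumor and 0.446 to 0.584 in nodes.

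**Figure D1:**
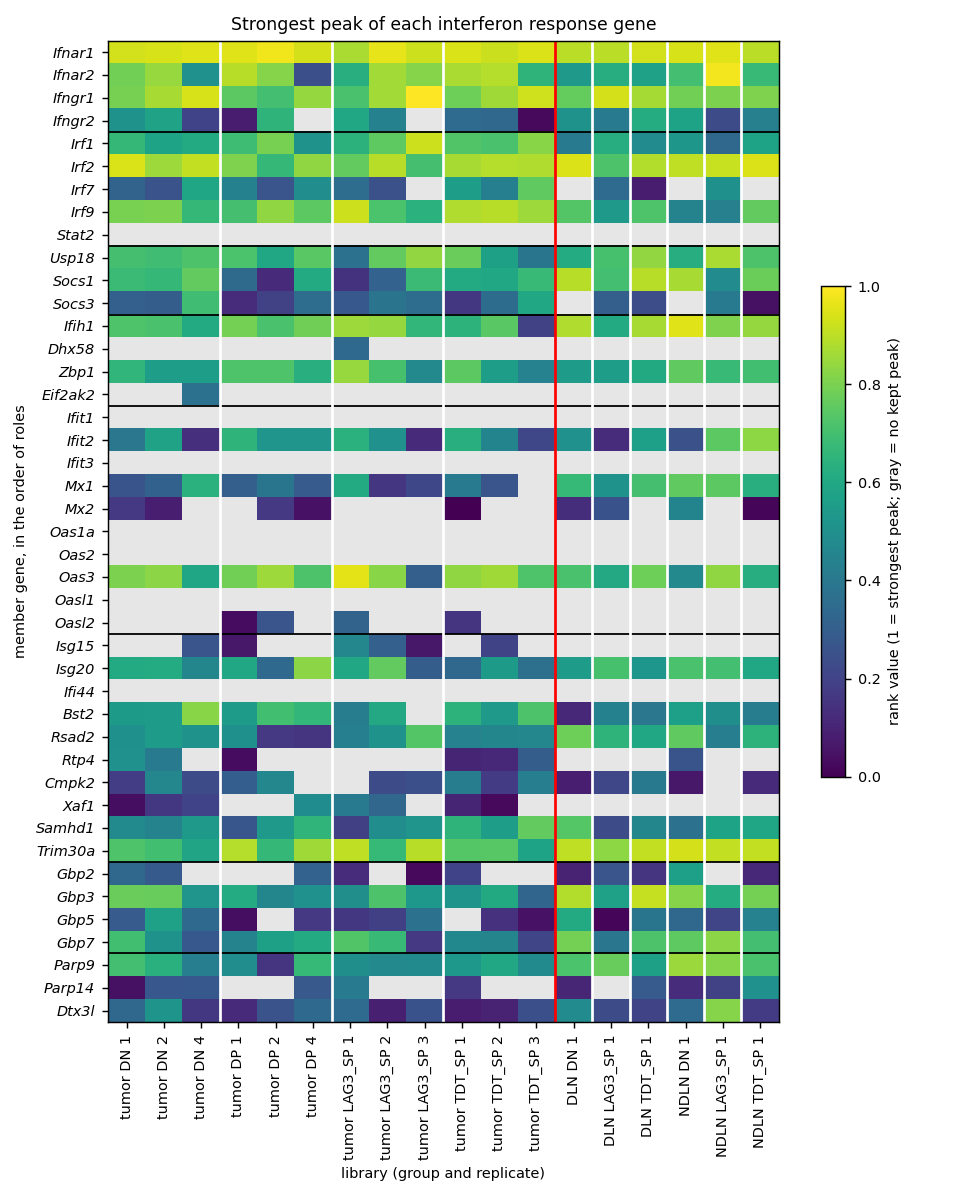
Rank value of the strongest kept peak of each of the 43 member genes (rows, by role, separated by black lines) in each of 18 libraries (columns, by group, with tumor left and lymph nodes right of the red line); gray marks no kept peak. Ifnar1, Ifngr1, Irf2 and Irf9 have a kept peak in all 18 libraries, and 7 genes are gray throughout.

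Member peaks near a start site had higher rank values than distal ones. Of 834 kept peaks over the 18 libraries at the 34 members with an annotated window, 374 (44.8%) had their summit within 500 bp of a start site of the gene, with a median rank value of 0.586. The 187 peaks between 500 bp and 10 kb had a median of 0.336, and the 273 beyond 10 kb a median of 0.323. In the tumor fit, the 25 member regions at promoter windows had a median rank value of 0.637 and the other 80 member regions 0.189. A peak was present in all 12 tumor libraries at 37 of the 105 member regions.

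**Figure D2:**
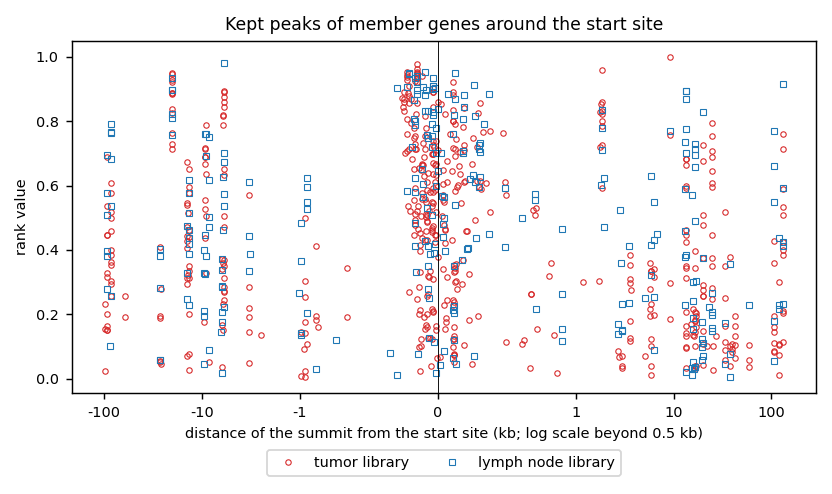
Rank value of the 834 kept peaks of the 34 member genes with an annotated window (y axis) against the distance of the summit from the start site in kb (x axis, linear within 0.5 kb and logarithmic beyond, negative before the start); circles are tumor and squares lymph node libraries. Of the peaks, 374 lie within 0.5 kb of the start, with a median of 0.586, and 273 beyond 10 kb, with a median of 0.323.

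Among the receptors, Ifnar1, a chain of the type I receptor, had the strongest region of all members. Its promoter region chr16:91484868-91485368 had rank values from 0.838 to 0.983 with a median of 0.956 in the 12 tumor libraries. Ifngr1, the ligand-binding chain of the interferon gamma receptor, had its strongest region at its promoter, chr10:19591558-19592058, with 0.780 to 0.965 and a median of 0.890. Both had a kept promoter peak in 18 of 18 libraries. Ifngr2, the partner chain of Ifngr1, had no peak over its promoter window in any whole list, although it had kept peaks elsewhere in 10 of 12 tumor and 6 of 6 node libraries. Ifnar2, the second type I chain, had a kept promoter peak in 1 tumor and 1 node library and its strongest peaks, at 0.243 to 0.893 in tumor, lay away from the annotated window.

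Among the transcription factors, Irf2, an antagonist of Irf1 at shared sites, and Irf9, the DNA-binding partner of Stat2, had the strongest regions. The Irf2 promoter region chr8:46739351-46739851 ranged from 0.754 to 0.958 in tumor with a median of 0.898, and the Irf9 promoter region chr14:55603805-55604305 from 0.732 to 0.943 with a median of 0.853. The Stat2 window was open in 18 of 18 libraries, at 0.793 to 0.943 in tumor and 0.679 to 0.889 in nodes, but the summits lay nearer to Apof and were not counted for Stat2 under the distance rule. Irf7, which drives the late wave of type I interferon genes, was more variable. Its window ranged from 0 to 0.755 in tumor with a kept peak in 11 of 12 libraries, and from 0 to 0.413 in nodes with a peak in 3 of 6. Irf7 ranges overlapped between the tissues.

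Among the negative regulators, Usp18, which removes ISG15 from proteins and blocks the type I receptor, had its strongest region 0.02 kb outside the gene at chr6:121245640-121246140, from 0.540 to 0.880 with a median of 0.787 in tumor. Socs1, an inhibitor of the JAK kinases, followed inside the gene at chr16:10784986-10785486, from 0.342 to 0.824 with a median of 0.688. Socs3, an inhibitor best known from cytokine receptors that share gp130, was weaker at its window. There it ranged from 0 to 0.693 in tumor with a kept peak in 10 of 12 libraries, and from 0 to 0.0451 in nodes with a peak in 2 of 6.

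Among the sensors, Ifih1, which encodes the double-stranded RNA receptor MDA5, was open at its promoter, chr2:62645990-62646490, from 0.407 to 0.892 with a median of 0.794. Zbp1, a sensor of Z-form nucleic acid, was open inside the gene at chr2:173218699-173219199, from 0.589 to 0.887 with a median of 0.738. The lowest tumor library was TDT_SP 3 for both genes. Dhx58, the gene of the RNA helicase LGP2, had a kept peak in 1 of 18 libraries. The window of Eif2ak2, the gene of the kinase PKR, was open in 7 of 12 tumor and 6 of 6 node libraries, but 13 of these summits fell to the neighbouring Gm26637.

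The IFIT, OAS and MX effectors were the least open role. Of these 10 genes, 5 (Ifit1, Ifit3, Oas1a, Oas2, Oasl1) had no kept peak under the distance rule in any library, and the Ifit1 window peaks were assigned to its neighbours Ifit1bl1 and Ifit1bl2. Oas3, a 2'-5' oligoadenylate synthetase that activates RNase L, had a strong region inside the gene, chr5:120775574-120776074, at 0.487 to 0.969 with a median of 0.861 in tumor. Its promoter window had no kept peak in 18 of 18 libraries, and in the whole lists a peak in 4 of 12 tumor and 0 of 6 node libraries. Ifit2, an RNA-binding effector, was open at its promoter, chr19:34550368-34550868, from 0.250 to 0.741 with a median of 0.641. Mx1 and Mx2, antiviral GTPases that are defective in C57BL/6 mice and annotated as pseudogenes, had kept peaks in 11 and 5 of 12 tumor libraries and in 6 and 4 of 6 node libraries. The Ifit, Oas, Trim30 and Gbp families hold near-identical copies, and how reads with several matches were treated is not given in the sources used here, so levels at single members of these families are uncertain.

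Among the other antiviral effectors, Trim30a, a tripartite-motif protein that dampens Toll-like receptor signals, and Bst2, which tethers virions to the cell surface, had the strongest regions. The Trim30a promoter region chr7:104445896-104446396 ranged from 0.614 to 0.928 with a median of 0.788. The Bst2 promoter region chr8:71537191-71537691 ranged from 0.108 to 0.869 with a median of 0.690, and its lowest library was LAG3_SP 3. Isg15, a ubiquitin-like modifier, had a kept promoter peak in 6 of 12 tumor and 0 of 6 node libraries, with 0.461, 0.308 and 0.0633 in LAG3_SP, 0, 0 and 0.264 in DN, 0.0660, 0 and 0 in DP and 0, 0.207 and 0 in TDT_SP. All 3 LAG3_SP libraries and 1 of 3 in each other tumor group had a kept Isg15 peak, and the groups overlapped. Xaf1, a regulator of apoptosis, had its promoter peak in 8 of 12 tumor and 0 of 6 node libraries. In the whole lists 10 of 12 tumor and 4 of 6 node libraries had a peak over the Isg15 window. For the Xaf1 window it was 11 of 12 and 5 of 6.

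Among the guanylate-binding proteins, interferon gamma-induced GTPases, the Gbp3 promoter region chr3:142560344-142560844 ranged from 0.503 to 0.831 with a median of 0.651, and the Gbp7 promoter region chr3:142530061-142530561 from 0.354 to 0.776 with a median of 0.507. Parp9 and Dtx3l, partners in ADP-ribose and ubiquitin marking that share a promoter, had their strongest regions inside Parp9 at chr16:35939587-35940087 and over the Dtx3l promoter at chr16:35938703-35939203, which was counted for both genes. The first ranged from 0.378 to 0.779 and the second from 0.318 to 0.523. The weaker members of these roles were Gbp2, with a kept promoter peak in 6 of 12 tumor and 1 of 6 node libraries, Gbp5, with 1 of 12 and 2 of 6, and Parp14, which had a kept peak anywhere in 6 of 12 tumor libraries.

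**Figure D3:**
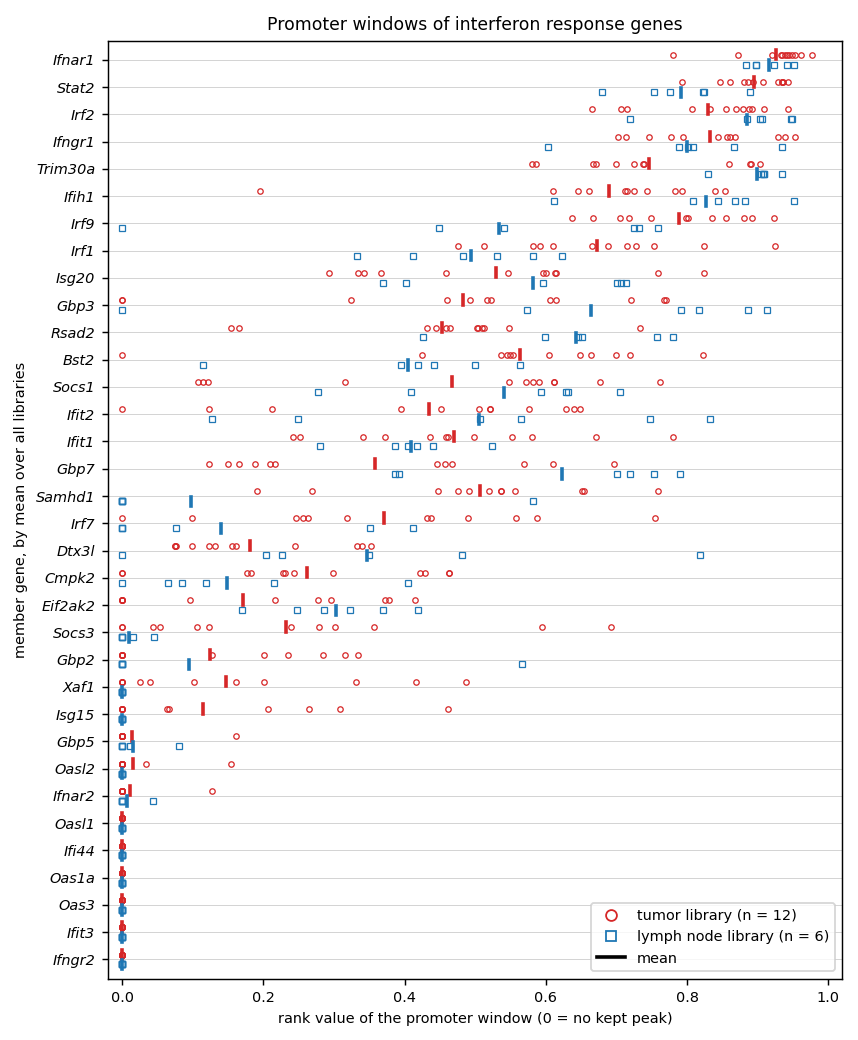
Rank value of the promoter window (x axis, 0 for no kept peak) of the 34 member genes with a window (y axis, by mean over all libraries), in 12 tumor (circles) and 6 lymph node libraries (squares), with the mean of each tissue as a bar. Samhd1 and Socs3 show tumor points to the right of most node points, and Gbp7 and Trim30a the reverse.

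The tumor groups ask how accessibility differs between DN cells and the groups described as tdTomato+. Few member regions differed. In DP minus DN, 0 of 105 member regions were higher and 1 was lower (limma, Benjamini-Hochberg adjusted p under 0.05 over 27065 regions), against 2.6% of all regions higher and 1.34% lower. In LAG3_SP minus DN 2 were higher and 1 lower, against 3.61% and 2.01%. In TDT_SP minus DN 0 were higher and 1 lower, against 0.214% and 0.362%. The members' shares are near or below these backgrounds, except for the lowered share in TDT_SP minus DN, where 1 region is 0.952% of 105. The 3 comparisons share the DN libraries, so their results are not independent of each other.

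The lowered region lay inside Gbp7 at chr3:142533069-142533569. It had rank values of 0.288, 0.314 and 0.292 in the DN libraries (mean 0.298 ± 0.0138 SD, n = 3) and 0 in all 9 DP, LAG3_SP and TDT_SP libraries, so DN did not overlap any other group. The difference was -0.298 (SE 0.0415) in each comparison, with adjusted p = 0.00211 for DP, 0.00197 for LAG3_SP and 0.00621 for TDT_SP. All 3 calls remained when any single library was left out, and without the 4 highest-numbered libraries. The 0 values hide weaker peaks: in the whole lists the region had a peak in 3 of 3 DN, 1 of 3 DP, 0 of 3 LAG3_SP and 2 of 3 TDT_SP libraries, and none of the 3 calls passed with all peaks ranked, with peaks ranked by fold or with each pair of groups fitted alone.

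Both raised regions lay inside Irf2. At chr8:46752932-46753432 the DN libraries had 0, 0 and 0, DP had 0.332, 0.385 and 0.361, LAG3_SP had 0.520, 0.575 and 0.368, and TDT_SP had 0.183, 0 and 0. DP and LAG3_SP were above every DN and TDT_SP library. LAG3_SP exceeded DN by 0.488 (SE 0.0957, adjusted p = 0.0111), and DP exceeded DN by 0.359 with adjusted p = 0.0554. The LAG3_SP call remained when any single library was left out, and was lost with all peaks ranked and with both groups fitted alone. In the whole lists the region had a peak in 2 of 3 DN and 2 of 3 TDT_SP libraries. The DN range overlapped those of DP and of LAG3_SP there, with DN replicate 2 (0.537) above LAG3_SP replicate 3 (0.389). The call remained without the 4 highest-numbered libraries (adjusted p = 0.0197). A region of Blk, a B cell list gene, was also higher than in DN, by 0.50 (SE 0.113) in DP and 0.474 (SE 0.113) in LAG3_SP. A region of Ebf1, from the same list, was higher in LAG3_SP by 0.405 (SE 0.105). Of the 5 regions of that list, 2 were thus higher in LAG3_SP than in DN. Their part in the Irf2 result was not tested.

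The second Irf2 region, chr8:46782208-46782708, had 0, 0.0148 and 0 in DN, 0.406, 0.162 and 0.341 in DP, 0.310, 0.360 and 0.385 in LAG3_SP, and 0 in all 3 TDT_SP libraries. LAG3_SP and DP again lay above all DN and TDT_SP libraries. LAG3_SP minus DN was 0.347 (SE 0.0792, adjusted p = 0.0228), and the call was lost without DN replicate 1 or DN replicate 2, with adjusted p up to 0.0790, and without the 4 highest-numbered libraries (adjusted p = 0.0740). It was also lost with presence or absence of a peak, with all peaks ranked, with peaks ranked by fold and with both groups fitted alone, and held under 17 of 25 alternatives. In the whole lists 2 of 3 DN and 2 of 3 TDT_SP libraries had a peak there. DN replicate 2 (0.559) was above DP replicate 2 (0.388) and above LAG3_SP replicates 1 (0.477) and 3 (0.406). DP minus DN was 0.298 with adjusted p = 0.0548. With the highest-numbered libraries as a term in the fit, both Irf2 regions passed in DP minus DN (adjusted p = 0.0359 and 0.0432), as did a region of Ifih1, chr2:62618986-62619486, which was higher by 0.289 (adjusted p = 0.0472).

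**Figure D4:**
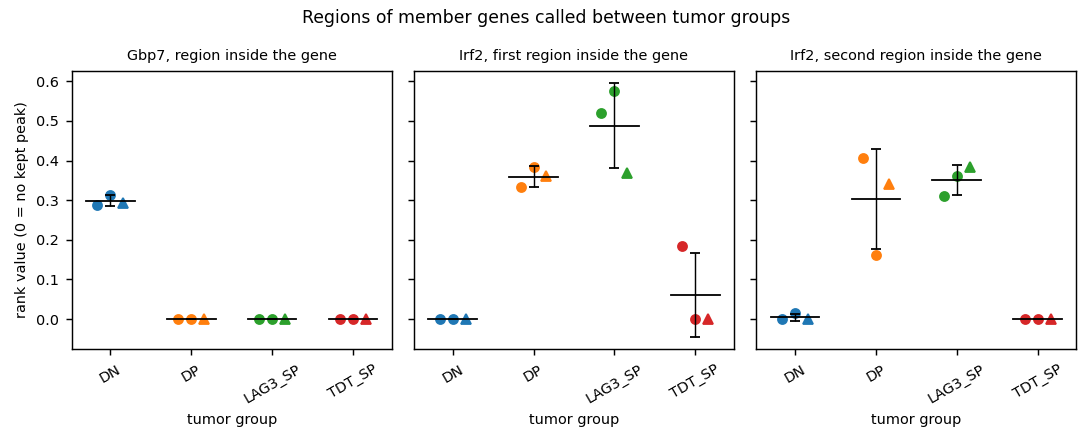
Rank values (y axis, 0 for no kept peak) of the 3 member regions that passed between tumor groups, by group (x axis); points are libraries, triangles the highest-numbered library of each group, bars the mean and whiskers the SD (n = 3). The Gbp7 region is above 0 only in DN, and at both Irf2 regions the DP and LAG3_SP points lie above all DN and TDT_SP points.

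Between the DP, LAG3_SP and TDT_SP groups no member region passed with limma. In LAG3_SP minus DP 0 of 105 passed (background 0.0% in each direction) and 8 had an unadjusted p under 0.05 (7.62%, against 5.81% of all regions). The smallest p belonged to Ifih1 at chr2:62618986-62619486, with 0.362, 0.243 and 0.262 in DP, 0, 0.184 and 0 in LAG3_SP and a difference of -0.228 (SE 0.0765, adjusted p = 0.803). In TDT_SP minus DP 0 passed (background 0.0185% higher and 0.0148% lower) and 5 had an unadjusted p under 0.05 (4.76%, against 11.7% of all regions), led by the second Irf2 region (adjusted p = 0.183). In LAG3_SP minus TDT_SP 0 passed (background 0.702% higher and 0.236% lower) and 12 had an unadjusted p under 0.05 (11.4%, against 17.5% of all regions). There the first Irf2 region led, with a difference of 0.426 (SE 0.0957, adjusted p = 0.0570), and both Irf2 regions passed with the highest-numbered libraries as a term (adjusted p = 0.0390 and 0.0437).

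The median difference over the 105 member regions was -0.0232 in DP minus DN, beside -0.005 over all regions. It was -0.0340 beside -0.0166 in LAG3_SP minus DN and -0.0160 beside 0.00265 in TDT_SP minus DN. By role, the medians of the 14 regions of negative regulators were -0.110 in DP, -0.145 in LAG3_SP and -0.0291 in TDT_SP, with none of these regions past the threshold. Without the 4 highest-numbered libraries 5 member regions passed in DP minus DN (4.76%, against 7.39% of all regions in that fit), among them the Socs1 region chr16:10784986-10785486, at -0.345 (adjusted p = 0.0372). The 25 receptor regions had medians of -0.0310, -0.00546 and -0.00543, also with none past it.

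The comparison of tumor with lymph node asks how the tissue sets accessibility, using DN, LAG3_SP and TDT_SP with the sorted subset as a term, and tumor against the mean of DLN and NDLN. Of 89 member regions 4 were higher in tumor (4.49%, against 10.2% of all regions) and 14 lower (15.7%, against 12%). The raised regions belonged to Irf1, Irf9 and Samhd1, and the lowered ones to 11 genes, among them the sensor Ifih1, the inhibitors Socs1 and Usp18 and the GTPases Gbp2 and Gbp7. The median difference of members was -0.0280 beside 0.00881 over all regions. In all 18 called regions the ranges of the 9 tumor and 6 node libraries overlapped. The count of calls was 3 with all peaks ranked, 7 with presence or absence of a peak and 8 with peaks ranked by fold. The shares of all regions called in these alternatives are not given here, so the counts are not read as a result about the members. Of the 18 calls, 5 remained when each of the 15 libraries was left out in turn: both regions of Samhd1, the Ifih1 region, the distal Irf1 region and the Irf9 promoter. Without the 3 highest-numbered tumor libraries of this fit 7 of the 18 calls remained: Mx1, Ifih1, the inner Samhd1 region, the distal Irf1 region, the Irf9 promoter, the Trim30a region at chr7:104445896-104446396 and the Socs1 region at chr16:10772022-10772522, with adjusted p from 0.0165 to 0.0437. The other 11 had adjusted p from 0.0573 to 0.156.

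Samhd1, a phosphohydrolase that depletes the nucleotides viruses need for reverse transcription, moved in both directions within 1 gene. Its promoter region chr2:157134987-157135487 had 0.476, 0.447 and 0.537 in tumor DN, 0.191, 0.491 and 0.520 in LAG3_SP and 0.652, 0.556 and 0.759 in TDT_SP. In nodes it was 0 in 5 of 6 libraries and 0.582 in NDLN LAG3_SP. Among kept peaks, tumor was thus above all but that 1 node library, by 0.417 (SE 0.106, adjusted p = 0.0128). In the whole lists the promoter region had a peak in 12 of 12 tumor and 4 of 6 node libraries. There DLN LAG3_SP (0.555) and NDLN LAG3_SP (0.589) lay above tumor LAG3_SP 1 (0.548). The call was lost without the 3 highest-numbered libraries (0.372, adjusted p = 0.0700), with peaks ranked by fold (adjusted p = 0.0849) and with NDLN as the only node (adjusted p = 0.165). A region inside the gene, chr2:157121717-157122217, was 0 in all 9 tumor libraries of the fit. In nodes it had 0.737, 0.230 and 0.457 in DN, LAG3_SP and TDT_SP of DLN, and 0.378, 0 and 0.588 in the same order in NDLN. Tumor was lower by -0.398 (SE 0.0779, adjusted p = 0.00331). NDLN LAG3_SP stood with tumor at both regions. In the whole lists the inner region had a peak in 2 of 12 tumor and 5 of 6 node libraries, and its call held under 28 of 29 alternatives.

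The NDLN LAG3_SP list was the shortest used, with 14244 peaks. Its overlap with tumor lists (mean Jaccard index 0.613) exceeded that with the other node lists (0.561), whereas the other 5 node libraries overlapped more with nodes (0.661 to 0.682) than with tumor (0.531 to 0.634). Without it, 3 member regions were higher and 16 lower. The share of all regions called in that fit is not given here, so this count is not read as a result about the members.

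Ifih1 had a region 8.47 kb outside the gene, chr2:62654477-62654977, with 0.0516 in tumor DN 1 and 0 in the other 8 tumor libraries. Nodes had 0.618, 0.0891 and 0.472 in DLN and 0.751, 0 and 0.502 in NDLN, in the order DN, LAG3_SP, TDT_SP. Nodes were above tumor in 5 of 6 libraries, and the difference was -0.400 (SE 0.0843, adjusted p = 0.00478). In the whole lists the peak was present in 7 of 12 tumor and 5 of 6 node libraries.

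Irf1, an activator of interferon target genes and of antigen presentation, was higher in tumor at a region 16.7 kb away, chr11:53794829-53795329, and at its promoter, chr11:53769657-53770157. At the distal region tumor had 0.374, 0.282 and 0.349 in DN, 0.644, 0.753 and 0.248 in LAG3_SP and 0.689, 0.608 and 0.706 in TDT_SP, and nodes ranged from 0 to 0.265. Among kept peaks, all 3 tumor libraries lay above both node libraries within each sorted subset, and the difference was 0.354 (SE 0.0909, adjusted p = 0.0134). In the whole lists this held in TDT_SP only. There tumor DN 4 (0.539) was below DLN DN (0.685) and NDLN DN (0.666), and tumor LAG3_SP 3 (0.465) was below DLN LAG3_SP (0.651). The distal call was lost with presence or absence of a peak, with all peaks ranked, with peaks ranked by fold and with DLN as the only node. The promoter ranged from 0.476 to 0.924 in tumor (median 0.715) and from 0.332 to 0.623 in nodes (median 0.506), with a difference of 0.204 (SE 0.0682, adjusted p = 0.0432). The promoter call was lost when 12 of the 15 libraries were left out singly, with adjusted p up to 0.104. The Irf9 promoter ranged from 0.637 to 0.923 in tumor (median 0.801) and from 0.437 to 0.759 in nodes (median 0.633), and it was higher in tumor by 0.190 (SE 0.0499, adjusted p = 0.0153). The Irf9 call was lost with presence or absence of a peak, with all peaks ranked, with peaks ranked by fold and with DLN as the only node.

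Another region of Irf2, also inside the gene at chr8:46755905-46756405, was lower in tumor. It ranged from 0 to 0.395 in tumor (median 0.144) and was 0.489 or more in 5 of 6 node libraries, with 0 in NDLN LAG3_SP. The difference was -0.395 (SE 0.108, adjusted p = 0.0182), and it was lost without any 1 of 3 node libraries (DLN TDT_SP, NDLN DN or NDLN TDT_SP), with adjusted p up to 0.0634. Within Irf2, then, 2 regions were higher in LAG3_SP than in DN and another was lower in tumor than in nodes.

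Of the negative regulators, Socs1 was lower in tumor at a region 11.54 kb away, chr16:10772022-10772522, and at a region 0.96 kb away, chr16:10786251-10786751. The first had a median of 0.592 in tumor and 0.821 in nodes, and the difference was -0.248 (SE 0.0762, adjusted p = 0.0309). The second was 0 in 8 of 9 tumor libraries, but in the whole lists it had a peak in 10 of 12 tumor and 6 of 6 node libraries. Its median in nodes was 0.204, and the difference was -0.216 (SE 0.0598, adjusted p = 0.0193). That difference changed sign to 0.0751 with wider regions, and the call was lost without the highest-numbered libraries (adjusted p = 0.0904), with presence or absence of a peak, with all peaks ranked and with DLN as the only node. Usp18 was lower at a region 1.56 kb away, chr6:121272223-121272723, with medians of 0.234 and 0.571 and a difference of -0.267 (SE 0.0857, adjusted p = 0.0370). The nearer Socs1 region lost the call without DLN TDT_SP 1 (adjusted p = 0.0517), the farther one without any 1 of 7 libraries (up to 0.0865) and Usp18 without any 1 of 8 (up to 0.101).

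Trim30a was lower at both of its promoter regions. At chr7:104465009-104465509 tumor ranged from 0.517 to 0.816 (median 0.664) and nodes from 0.702 to 0.907 (median 0.860), a difference of -0.188 (SE 0.0495, adjusted p = 0.0152). At chr7:104445896-104446396 the medians were 0.699 and 0.905, and the difference was -0.182 (SE 0.0522, adjusted p = 0.0227). Mx1 was lower 0.04 kb outside the gene at chr16:97462701-97463201, with medians of 0.263 and 0.688 and a difference of -0.351 (SE 0.0961, adjusted p = 0.0186). The first Trim30a call was lost without DLN DN 1 (adjusted p = 0.0569), the second without any 1 of 4 node libraries (up to 0.0776) and the Mx1 call without DLN TDT_SP 1 (0.0608).

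Gbp7 was lower in tumor at its promoter and inside the gene. The promoter region ranged from 0.124 to 0.696 in tumor (median 0.209) and from 0.386 to 0.790 in nodes (median 0.710), and all 3 tumor libraries of a subset lay below both node libraries in each of the 3 subsets. The difference was -0.327 (SE 0.0909, adjusted p = 0.0198), and the call was lost without DLN DN 1 or NDLN DN 1 (adjusted p up to 0.0568). It was also lost with presence or absence of a peak, with all peaks ranked, with peaks ranked by fold and with DLN or NDLN as the only node. In the whole lists the LAG3_SP subset overlapped, with tumor LAG3_SP 2 (0.773) above DLN LAG3_SP (0.750) and NDLN LAG3_SP (0.397) below all 3 tumor libraries. The inner region, chr3:142532991-142533491, overlaps the Gbp7 region that was lower in tumor DP, LAG3_SP and TDT_SP than in tumor DN. Its tumor values of 0.0342, 0.0691 and 0.0395 were all in DN, nodes had 0.233, 0.150 and 0.149 in DLN and 0.360, 0 and 0 in NDLN, and the difference was -0.133 (SE 0.0406, adjusted p = 0.0301). Without any 1 of 4 libraries, among them all 3 of tumor DN, that call was lost (up to 0.0581).

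The remaining 3 lowered regions had small differences and often lost the call. Gbp2, a guanylate-binding protein, was lower inside the gene at chr3:142621136-142621636, with 0 in all 9 tumor and 2 of 6 node libraries (difference -0.167, SE 0.0578, adjusted p = 0.0497). Ifngr1 was lower 9.56 kb away at chr10:19582142-19582642, with 0 in 8 of 9 tumor libraries and 1 of 6 node libraries (-0.177, SE 0.0593, adjusted p = 0.0432). Dtx3l was lower 7.64 kb away at chr16:35918625-35919125, with 0 in 8 of 9 tumor libraries and 2 of 6 node libraries (-0.117, SE 0.0391, adjusted p = 0.0431). The 0 values hide weaker peaks. In the whole lists the Gbp2, Ifngr1 and Dtx3l regions had a peak in 7, 10 and 9 of 12 tumor libraries. In nodes it was 5, 6 and 5 of 6. Single libraries ended these calls in 13, 12 and 10 of 15 omissions, with adjusted p up to 0.127, 0.122 and 0.0929.

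**Figure D5:**
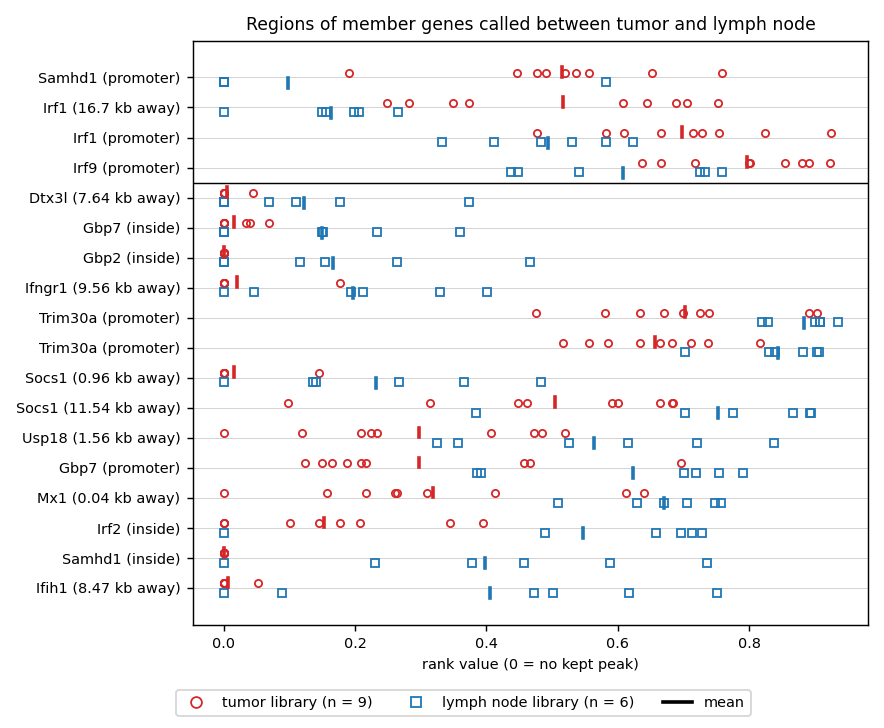
Rank values (x axis, 0 for no kept peak) of the 18 member regions that passed between tumor and lymph node, with 9 tumor libraries as circles, 6 node libraries as squares and the mean of each tissue as a bar. The 4 regions above the line were higher in tumor and the 14 below it lower, and every region has some overlap of the points.

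Other promoter regions with a difference above 0.14 in size did not pass. The difference of tumor minus node was 0.260 at Socs3 (adjusted p = 0.0694), 0.222 at Irf7 (0.189), 0.145 at Isg15 (0.117) and 0.142 at Xaf1 (0.0923). It was -0.242 at Gbp3 (0.0691), -0.175 at Dtx3l (0.216) and -0.162 at Ifih1 (0.149). Among the cell type markers, a Blk region was higher in tumor by 0.443 (SE 0.0960, adjusted p = 0.00548), a Pmel region by 0.281 and an Eomes region by 0.278, and of 30 T cell marker regions 1 was higher and 5 were lower. Their part in the results on members was not tested.

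DLN and NDLN were compared in the same fit, with 3 libraries each. With limma 0 of 89 member regions passed, against 0.0174% of all regions higher and 0.013% lower, and 2 had an unadjusted p under 0.05 (2.25%, against 6.70% of all regions). The smallest p was at Irf2, chr8:46869383-46869883, with 0.425, 0.233 and 0 in DLN and 0.593, 0.915 and 0.412 in NDLN, a difference of -0.421 (SE 0.149, adjusted p = 0.567).

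Other genes of the pathway were taken from a list of signalling genes and a list of targets. Of 20 other signalling and sensing genes, 16 had regions in the tumor fit, 52 in all. Of these, 1 was higher and 2 lower in DP minus DN, 2 and 2 in LAG3_SP minus DN, and 0 and 2 in TDT_SP minus DN. Of all regions, 2.6% were higher and 1.34% lower, 3.61% and 2.01%, and 0.214% and 0.362%, in the same order. For the regions of these other genes, peaks of the whole lists and alternative fits are not given. Jak1, the kinase shared by both interferon receptors, was lower than in DN at the same 2 regions inside the gene in all 3 comparisons, by -0.448 (SE 0.0598) at chr4:101175229-101175729 and by -0.211 (SE 0.0425) at chr4:101167730-101168230, with adjusted p from 0.00147 to 0.0471. Tbk1, a kinase below the nucleic acid sensors, was higher 25.35 kb away in DP and LAG3_SP, by 0.563 and 0.671, and Jak2, the kinase of the Ifngr2 chain, in LAG3_SP by 0.395 (adjusted p = 0.0458). Of 55 other target genes, 44 had regions, 100 in all, and 3 were higher and 1 lower in DP minus DN, 2 and 1 in LAG3_SP minus DN, and 0 in TDT_SP minus DN. These counts are near or below the shares of all regions, 2.6% higher and 1.34% lower in DP minus DN and 3.61% and 2.01% in LAG3_SP minus DN. The raised ones included Nlrc5, an activator of class I antigen presentation genes, by 0.569 in DP and 0.466 in LAG3_SP, and Ifitm3, a membrane protein that blocks virus entry, by 0.604 and 0.658, while Parp12 was lower by -0.319 in both.

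Between tumor and lymph node, the 46 regions of the signalling genes gave 4 higher, among them regions of Ptpn2, Ptpn6 and Pias1, and 5 lower, of which 4 belonged to Jak1 and 1 to Irf4. The Jak1 regions ranged from -0.257 to -0.562 in difference, and the region of Pias1, which encodes an inhibitor of STAT signalling, was higher by 0.507 (adjusted p = 0.00401). The 74 regions of the other target genes gave 6 higher (Sp100, Irgm2, Psmb9, Helz2, Tnfsf10, Ifitm1) and 8 lower (Slfn5 at 2 regions, Slfn8, Ly6e, Gbp4, Gbp8, Herc6, Nlrc5), beside 10.2% of all regions higher and 12% lower. Psmb9, an immunoproteasome subunit, was higher by 0.403 (adjusted p = 0.00153) and Ly6e, a surface protein of lymphocytes, lower by -0.436 (adjusted p = 0.00619). A gene was assigned by position alone, which does not show that a region regulates it.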

How the data were processed

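Peaks of 24 ATAC-seq libraries were deposited as 1 list per library. Per the submitters' processing notes, BWA aligned the reads to GRCm38 (mm10) and MACS2 called the peaks. Versions and settings are not stated there. Each deposited peak carries the authors' fold ratio over local background, −log10 p, −log10 q and score, which the caller computes within a library. The main analysis used the −log10 p deposited by the authors. The fold and −log10 q served as alternatives, and the deposited score, 10 times −log10 q, was only inspected. No counts were given, so depth and counting error are unknown.

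Of 586440 peaks, 53 off chromosomes 1 to 19 and X were dropped. Regions of 501 bp around summits were kept when 2 or more libraries had a peak overlapping by 1 bp. Genes came from RefSeq, 21896 protein-coding genes plus Mx1 and Mx2. Limma (lmFit, eBayes with trend, two-sided) was fitted over all regions of the 12 tumor or 15 tissue libraries, and its shared spread serves groups of 1 library. The model assumes an even and independent spread, which values of 0 in whole groups and libraries that deviate together do not have. The script was tested on simulated data. Members and lists were chosen with earlier results of these data known. All 43 members are named, in full those of called regions, of the smallest p of each comparison and of the 2 strongest regions of each role. The promoter windows named in other sentences, the other pathway genes given with values and the choice of printed sequences were picked after their values were seen. Python 3.11.15, numpy 2.4.6, pandas 2.3.3, matplotlib 3.10.9, R 4.3.3 and limma 3.58.1 were used. Some results on other genes are not reported here.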

Additional observations from a re-analysis of the deposited data

Results flagged for a closer look

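Of the 6 short lists, used in no comparison, 5 held member peaks, and NDLN_TDT_SP replicate 2 had 0 among 321. DLN_TDT_SP replicate 2 had 13 member peaks among 3909, NDLN_DN replicate 2 had 22 among 6613, Tumor_DN replicate 3 had 7 among 4603 and Tumor_DP replicate 3 had 11 among 5188. These are 0.333%, 0.333%, 0.152% and 0.212% of their lists, beside 0.319% to 0.400% of the whole lists of the used node libraries and 0.330% to 0.388% of those of the used tumor libraries. Ifnar1 and Ifngr1 had a peak in all 4, and Ifngr1 also had the only member peak of the 301 in DLN_DN replicate 2.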

How the results depend on the processing

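The number of member regions called in DP minus DN, 1 in the report, was 0 per gene, with all peaks, ranked by fold or with 2 groups alone, 2 with the summit inside the region, 3 with presence or absence, 4 with a peak in 3 or more libraries, with wider regions or with the highest-numbered libraries as a term, and 5 without them. LAG3_SP minus DN, 3 in the report, gave 0 per gene, with all peaks or with 2 groups alone, 1 ranked by fold and 5 without the highest-numbered libraries. Without those libraries the calls were 4.76% of member regions in both comparisons. Of all regions, 7.39% were then called in DP minus DN and 9.85% in LAG3_SP minus DN. With the libraries as a term DP minus DN had 3.81% of member regions, against 6.11% of all regions. TDT_SP minus DN, 1 in the report, gave 0 per gene, with all peaks, ranked by fold or with 2 groups alone. LAG3_SP minus DP, 0 in the report, gave 1 without the highest-numbered libraries (0.952%, against 0.484% of all regions). LAG3_SP minus TDT_SP, 0 in the report, gave 2 with a peak in 3 or more libraries or with that term, and 1 at a -log10 q of 3 or more or without those libraries. With the term this was 1.90%, against 2.04% of all regions, and without the libraries 0.952%, against 1.925%. Tumor minus lymph node, 18 in the report, gave 3 with all peaks, 5 per gene, 7 with presence or absence, with DLN alone or with NDLN alone, 8 ranked by fold or without the highest-numbered libraries and 10 with them as a term. Without those libraries this was 8.99%, against 13.8% of all regions, and with the term 11.2%, against 17.5%. Leaving out 1 library gave 1 to 4 in DP minus DN, 2 to 6 in LAG3_SP minus DN, 1 in TDT_SP minus DN, 0 in LAG3_SP minus DP and TDT_SP minus DP, 0 to 2 in LAG3_SP minus TDT_SP, 10 to 19 in tumor minus lymph node and 0 in DLN minus NDLN. Member peaks were 0.380% of kept peaks on average, and 0.304% with genes within 10 kb. The Socs1 region chr16:10786251-10786751 changed sign to 0.0751 with wider regions. Where a count in this section has no share of all regions beside it, it is not read as a result about the members. The cause of these changes was not tested.

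With the replicate number as a block, TDT_SP minus DN and tumor minus lymph node gave 0 calls, DP minus DN 1 and LAG3_SP minus DN 2. Same-numbered libraries correlated by 0.0271 to 0.268 in tumor and 0.0772 to 0.222 across tissues, 2 of 12 and 3 of 8 correlated best with their own number, and the numbers were not taken as pairs. Without counts, peak strength could not be given a counting error.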

Other observations

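A region inside Ifngr1, chr10:19600902-19601402, had a kept peak only in the highest-numbered tumor library of each group: DN 4 had 0.483, DP 4 had 0.821, LAG3_SP 3 had 1.000, TDT_SP 3 had 0.400 and the other 8 had 0. A rank value of 1.000 marks the top of the list. The labels give these 4 libraries no batch of their own, and the source of the peak was not tested.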
